A study of Mus musculus with 1931 samples.

Results

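The transcription factor p53 and its target genes were followed through a stem cell model of the early mouse embryo. The 10 genes described are *Trp53*, which encodes p53, and 9 of its textbook targets (*Cdkn1a*, *Mdm2*, *Ccng1*, *Bax*, *Bbc3*, *Trp53inp1*, *Sesn2*, *Phlda3* and *Aen*). They were chosen by name, with earlier results of these data known, and all 10 were found among the 20999 genes of the deposited table.

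RtL-embryoids (Rosette-to-Lumen stage embryoids) were assembled in 3D from 3 mouse embryonic stem cell (ESC) lines. The first, Kermit, expresses GFP from the *Oct3/4* promoter and gives the epiblast (Epi)-like compartment. In 5-Factor ESCs doxycycline (DOX) switches on 5 trophoblast transgenes (*Ets2*, *Gata3*, *Eomes*, *Tfap2c*, *Cdx2*), which drive cells towards extraembryonic ectoderm (ExE) and, in 2D, towards induced trophoblast stem cells (iTSC). In mCherry-marked iGATA6 ESCs DOX switches on *Gata6*, which drives cells towards visceral endoderm (VE) and, in 2D, towards induced extraembryonic endoderm (iXEN) cells. Cultures had DOX (2 µg/ml) for 3 days and none for the following 24 h, which in 3D reached all 3 lines together, Kermit ESCs included, and in 2D the iTSC and iXEN cultures. The 2D ESCs were GFP-sorted Kermit ESCs kept in 2i/LIF without DOX. Live cells were sorted by GFP, by mCherry or by an antibody to the surface protein CD40, and each sorted cell was sequenced by SMART-seq2, a full-length mRNA method without molecular identifiers.

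Each condition was 1 pool of RtL-embryoids or 1 culture. Plates 3, 4 and 5 are technical splits of the 3D pool, so their spread is not a spread between biological replicates, and no test between conditions was possible. A cell entered the means when 2500 or more of its genes were above 0, which held for 85.5% of 1149 wells in 3D, 44.8% of 317 for 2D ESC, 49.8% of 283 for 2D iTSC and 77.5% of 182 for 2D iXEN. Of the 1406 kept cells, 22.3% lay in 3D well columns 1 to 8 (Epi columns), 22.4% in columns 9 to 16 (VE columns) and 25.1% in columns 17 to 24 (ExE columns), and the 2D cultures held 10.03 to 10.1% each. Values are TPM rescaled to a sum of 10000 per cell (TP10k), averaged over all cells of a group including those at 0. They are corrected for transcript length, so levels of different genes can be set side by side. The median number of genes above 0 was 4823 to 5396 in the 3 column blocks and 8537 to 9093.5 in the 2D cultures, and between 3D and 2D this depth, the plate, the medium and the culture form cannot be told apart. Each lineage came from its own ESC line, with its own transgenes and sort marker, in 3D and again in 2D. Lineage therefore cannot be told apart from these, and 2D repeats the same overlap.

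The sample labels give no lineage or sort marker for the 3D wells, so the blocks were named by well position and checked against marker lists. A list of 6 Epi markers led in 99.7% of cells of the Epi columns and in all 2D ESC, and a list of 6 VE markers led in 97.8% of cells of the VE columns and in all 2D iXEN. By leading list the ExE columns were mixed, although their 6 Epi markers summed to 2.16 TP10k, against 36.05 in the Epi columns. Their 6 VE markers summed to 1.88 TP10k, against 21.7 in the VE columns. A leading list alone thus does not name a cell of this block as Epi or VE. A list of 7 ExE markers led in 70.3% of their cells, Epi markers in 14.7% (52 cells) and VE markers in 15.01% (53 cells), and the lead was under 0.1 on the ln(TP10k + 1) scale in 48, 28 and 27 cells of these kinds. Of the 2D iTSC, 73 cells were led by ExE and 68 by Epi markers, with a lead under 0.1 in 19 and 16. The VE columns and 2D iXEN also held a list of 6 parietal endoderm markers at a summed 84.03 and 132.7 TP10k, against 1.47 to 8.31 in the other 4 groups. The list did not go one way, since 2D iXEN had the highest mean of 3 of its genes, the ExE columns of 2 and the VE columns of 1. *Thbd* was below 0.01 in all 6 groups. Lists of 5 trophoblast giant cell and 6 fibroblast markers summed to at most 0.00554 and 0.0476 TP10k in every group.

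As background, p53 is held low in unstressed cells by MDM2, a ubiquitin ligase that tags it for degradation and is itself encoded by a p53 target, so that p53 limits its own level. When DNA damage or other stress frees p53, it raises genes that halt the cell cycle, repair damage, lower reactive oxygen or start apoptosis. Much of this control acts on the protein, so that *Trp53* mRNA need not follow p53 activity. Mouse ESCs hold much p53 mRNA, and the early epiblast is known for a strong p53-dependent apoptotic response.

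Because p53 acts through a recognition motif built of a 10-base unit, the start regions of the members were searched for it. The window ran from 250 bases before to 50 bases after each RefSeq transcription start of GRCm38.p6. It held 13 start regions for 9 of the 10 members, and none for *Trp53inp1*. The p53 10-base unit, a pattern that reads the same on both strands, was found in 7 of these 13 start regions, belonging to *Aen* (its 2 overlapping windows), *Bax*, *Ccng1*, *Cdkn1a*, *Mdm2* and *Trp53*. Both *Aen* windows hold the same unit. Of all 32851 start regions, 8.36% held it, but the members were picked as p53 targets, so these shares are no test. The full motif, 2 such units with at most 13 bases between them, was found in 1 of the 13, a *Cdkn1a* start region, and in 24 (0.0731%) of all. The units are shown in capitals with 10 bases on each side, 5′ to 3′ on the strand of the gene.

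*Cdkn1a*, chr17:29090896-29090925, + strand: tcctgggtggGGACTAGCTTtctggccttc
*Cdkn1a*, chr17:29090918-29090947, + strand: tggccttcagGAACATGTCTtgacatgttc
*Mdm2*, chr10:117710925-117710954, - strand: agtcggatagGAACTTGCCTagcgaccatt
*Ccng1*, chr11:40755452-40755481, - strand: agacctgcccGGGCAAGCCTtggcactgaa
*Bax*, chr7:45467080-45467109, - strand: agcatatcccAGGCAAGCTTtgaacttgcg
*Aen*, chr7:78895927-78895956, + strand: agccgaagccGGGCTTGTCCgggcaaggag
*Trp53*, chr11:69580274-69580303, + strand: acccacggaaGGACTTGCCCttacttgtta

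The units in *Cdkn1a* began 73 and 51 bases before 1 of its 2 starts, and the window of the other start held none. The unit in *Trp53* began 75 bases before its start. A match describes the letters and is no evidence of binding, and a window without a match says nothing of sites elsewhere.

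*Trp53* itself followed lineage, and with it the ESC line and its transgenes, in 3D and in 2D alike. On plates 3, 4 and 5 its mean level was 7.21, 7.57 and 6.82 TP10k in the Epi columns, 3.49, 3.36 and 2.81 in the ExE columns and 2.04, 1.61 and 1.51 in the VE columns. The 2D cultures held 6.41 TP10k in ESC, 3.69 in iTSC and 1.49 in iXEN. Thus the 3 blocks did not overlap on any plate, and the order Epi, ExE, VE was that of ESC, iTSC, iXEN. Neighbours of like lineage were close, since 2D ESC lay below all 3 plates of the Epi columns by 1.12-fold on average (log2 0.17), and 2D iXEN below those of the VE columns, at a log2 ratio of 0.21. *Trp53* was above 0 in 98.7% of the cells of the Epi columns (95% Clopper-Pearson interval 96.8 to 99.7%, covering counting error only), in 93.2% of the ExE columns (90.1 to 95.6%) and in 85.4% of the VE columns (81.01 to 89.1%). More than 5 TP10k were reached by 71.3% of the cells in the Epi columns, 17.3% in the ExE columns and 4.13% in the VE columns. Of the 31-base words of *Trp53* transcripts, 19.6% are shared with the processed pseudogene *Trp53-ps* on chromosome 17, so its reads could in part be split with that copy.

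*Bax*, whose product opens the mitochondrial outer membrane in apoptosis, had the same low group as *Trp53*. It stood at 8.19, 10.2 and 7.89 TP10k on plates 3, 4 and 5 in the Epi columns, at 7.60, 6.77 and 5.93 in the ExE columns and at 3.48, 3.43 and 2.26 in the VE columns. In 2D the level was 6.67 in ESC, 5.76 in iTSC and 2.93 in iXEN. Every plate of the VE columns lay below every plate of the other blocks, while the lowest plate of the Epi columns (7.89) was close to the highest of the ExE columns (7.60). Of the members, *Bax* had the highest level in all 6 groups. Over 12 points, which are the 3 blocks on 3 plates and the 3 cultures, log2 levels of *Bax* and *Trp53* had a Pearson r of 0.92. Points of a block share their pool, so this is a description. Of its 31-base words, 11.5% are shared with the annotated gene *Gm45808*.

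*Cdkn1a*, which encodes the cyclin-dependent kinase inhibitor p21 and is the classical p53 target of cell cycle arrest, did not follow lineage. On plates 3, 4 and 5 it was at 0.965, 0.987 and 0.814 TP10k in the Epi columns, 0.939, 0.738 and 0.948 in the VE columns and 1.62, 2.10 and 2.04 in the ExE columns. It reached 4.41 TP10k in 2D ESC, 2.63 in 2D iXEN and 1.52 in 2D iTSC. The Epi and VE columns overlapped and held the lowest levels, the ExE columns lay above both on every plate, and 2D ESC, with the second highest *Trp53* of the 6 groups, had the highest *Cdkn1a*. Of the cells, 44.6% had *Cdkn1a* above 0 in the Epi columns (39.003 to 50.3%) and 40% in the VE columns (34.5 to 45.6%), against 59.5% in the ExE columns (54.2 to 64.7%). In 2D these shares were 99.3% of ESC, 85.8% of iXEN and 76.6% of iTSC, but depth also differed, so they do not compare 3D with 2D. Of its 31-base words, 12.8% are shared with other annotated genes.

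**Figure D1:**
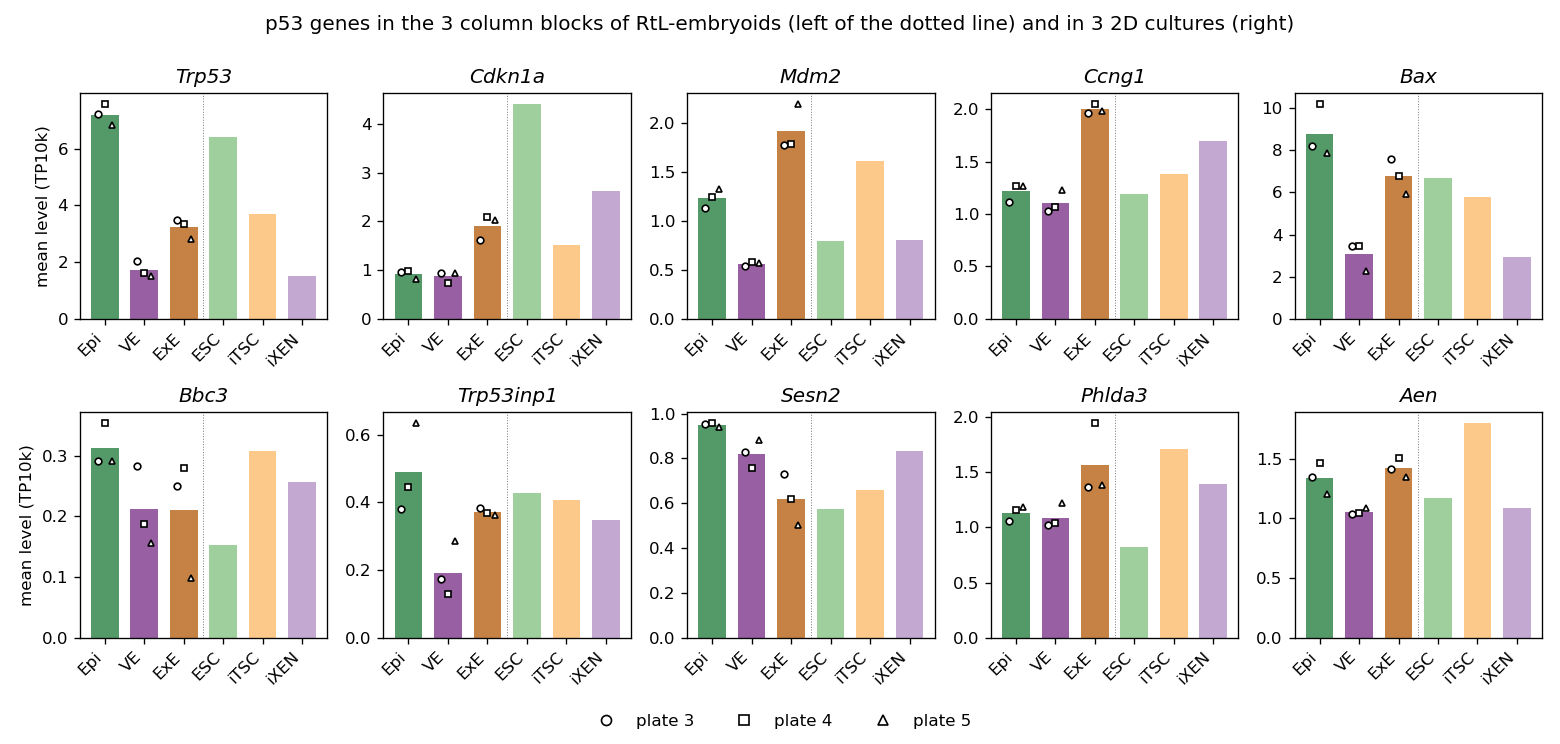
Mean level in TP10k (vertical axis, from 0, scaled per gene) of the 10 genes in the Epi, VE and ExE columns and in 2D ESC, iTSC and iXEN; bars are means over all cells, open symbols are the means of plates 3, 4 and 5, and the 2D cultures have no such split. *Trp53* steps down from Epi to ExE to VE and again from ESC to iTSC to iXEN, while *Cdkn1a* is highest in 2D ESC at 4.41 TP10k and lowest in the VE and Epi columns at 0.874 and 0.921 TP10k.

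*Mdm2*, the target that feeds back on p53, was highest in the trophoblast-directed cells. Its level was 1.78, 1.79 and 2.20 TP10k on plates 3, 4 and 5 of the ExE columns and 1.61 in 2D iTSC. The Epi columns had 1.13, 1.24 and 1.33, and the VE columns 0.544, 0.580 and 0.570. These blocks did not overlap, and 2D ESC (0.793) and 2D iXEN (0.809) were nearly equal. *Ccng1*, which encodes cyclin G1, was likewise highest in the ExE columns, at 2.00 ± 0.0456 TP10k (SD over 3 plates), with 1.22 ± 0.0875 in the Epi and 1.10 ± 0.105 in the VE columns, whose plates overlapped. The 2D cultures had 1.19 in ESC, 1.38 in iTSC and 1.70 in iXEN.

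Among the other members tied to apoptosis, *Phlda3*, whose product represses Akt signalling, and *Aen*, which encodes an apoptosis-enhancing nuclease, had their highest levels in 2D iTSC, at 1.71 and 1.80 TP10k. In the ExE columns *Phlda3* was at 1.56 ± 0.331 and *Aen* at 1.42 ± 0.0790. The Epi and VE columns held 1.13 ± 0.0632 and 1.09 ± 0.111 of *Phlda3*, with plates that overlapped, and 1.34 ± 0.133 and 1.06 ± 0.0278 of *Aen*. *Phlda3* was lowest in 2D ESC at 0.823. *Bbc3*, which encodes the BH3-only protein PUMA, was the least expressed member in 5 of the 6 groups, from 0.153 in 2D ESC to 0.312 ± 0.0360 in the Epi columns, and was above 0 in 30.5 to 38.2% of the 3D cells. In the VE columns *Trp53inp1*, at 0.192 ± 0.0810, was lower still than *Bbc3* at 0.211 ± 0.0666. *Trp53inp1*, whose product aids p53 in the stress response, ranged from that value to 0.488 ± 0.132 in the Epi columns. *Sesn2*, a sestrin that restrains mTORC1 signalling, varied least of all members. It was highest in the Epi columns at 0.9498 ± 0.0102 and lowest in 2D ESC at 0.575, a ratio of 1.65.

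Between the VE and the Epi columns, 4 of 10 members differed by at least 2-fold, all of them lower in the VE columns, while 28.9% of the 11507 genes tested did so in either direction and 14.9% were lower. *Trp53* was 4.15-fold lower (log2 -2.05, plates -2.23 to -1.82), *Bax* 2.84-fold (log2 -1.50, plates -1.80 to -1.23), *Trp53inp1* 2.46-fold (log2 -1.30, plates -1.73 to -1.09) and *Mdm2* 2.17-fold (log2 -1.12, plates -1.20 to -1.04). The other 6 members also had log2 ratios below 0, from -0.54 to -0.06, but *Cdkn1a* and *Phlda3* had a plate on either side of 0. Their median log2 ratio over all 10 was -0.44, beside -0.08 over all genes tested. In cells with 6000 to 8500 genes above 0, 33 cells of the Epi columns and 33.97% of those of the VE columns, *Mdm2* and *Trp53inp1* no longer reached 2-fold, at log2 ratios of -0.96 and -0.99.

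Between the ExE and the Epi columns, 2 of 10 members passed 2-fold, beside 21.2% of all genes. *Trp53* was 2.23-fold lower in the ExE columns (log2 -1.16, plates -1.28 to -1.05). *Cdkn1a* was 2.07-fold higher (log2 1.05, plates 0.74 to 1.31), close to the threshold, and was at 0.92 without plate 5. *Ccng1* and *Mdm2* were 1.64-fold and 1.55-fold higher on average and higher on every plate.

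Between the ExE and the VE columns, 3 of 10 members passed, all higher in the ExE columns, beside 20.7% of all genes in either direction and 13.2% higher. *Mdm2* was 3.36-fold higher (log2 1.75, plates 1.61 to 1.93), *Bax* 2.19-fold (log2 1.13, plates 0.98 to 1.39) and *Cdkn1a* 2.18-fold (log2 1.12, plates 0.78 to 1.497). The median log2 ratio over the 10 members was 0.87, beside 0.13 over all genes. Without plate 4 *Cdkn1a* was at 0.94, and in cells with 6000 to 8500 genes above 0 it was at 0.98, so it no longer reached 2-fold in either case. Without plate 5 *Trp53inp1* moved from 0.91 to 1.26. These 3 comparisons within the RtL-embryoids share their blocks, and are thus not independent of each other.

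Within the ExE columns *Mdm2* differed between cells grouped by their leading marker list. That lead was under 0.1 in 28 of the 52 cells led by Epi markers and in 27 of the 53 led by VE markers. In the cells of that block led by VE markers *Mdm2* was at 0.946 TP10k, against 2.15 in those led by ExE markers (log2 -1.17, plates -1.45 to -0.73) and 1.81 in those led by Epi markers. *Trp53* was at 2.35, 3.34 and 3.58 TP10k in cells led by VE, ExE and Epi markers. *Cdkn1a* was at 1.84, 1.88 and 2.17, and its plates disagreed, with log2 ratios of -0.37 to 1.04 for cells led by Epi over those led by ExE markers and -0.44 to 0.46 for cells led by VE over those led by ExE markers. When 3D cells were kept only where the markers of their own block led, 4 in place of 3 members passed between the ExE and the VE columns, since *Trp53* reached a log2 ratio of 1.002, and *Mdm2* was 3.80-fold higher. In 2D iTSC the 10 members differed by at most 1.35-fold between cells led by Epi and by ExE markers, with *Trp53* at 3.71 and 3.68 and *Cdkn1a* at 1.55 and 1.49 TP10k.

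Against the 2D culture of like lineage, *Cdkn1a* was the only member past 2-fold in the Epi and in the VE block. The Epi columns had 4.75-fold less *Cdkn1a* than 2D ESC (log2 -2.25, plates -2.42 to -2.15), and 1 of 10 members compares with 14.4% of all genes in either direction and 5.26% lower. Only 0.687% of the genes tested had a lower log2 ratio. The VE columns had 2.99-fold less *Cdkn1a* than 2D iXEN (log2 -1.58, plates -1.82 to -1.46), where 1 of 10 members compares with 8.01% of all genes in either direction and 4.86% lower, and 1.47% of them had a lower ratio. In the ExE columns *Cdkn1a* was instead 1.26-fold higher than in 2D iTSC (log2 0.33, plates 0.10 to 0.47), and 0 of 10 members passed, beside 16.4% of all genes.

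*Cdkn1a* was also compared in cells nearer in gene number, where the 3D cells still had fewer genes than the 2D cells. With 6000 to 8500 genes above 0 the log2 ratio was -2.63 for 33 cells of the Epi columns over 20 2D ESC, with medians of 6321 and 8188.5 genes, and -1.64 for the VE columns over 53 2D iXEN, with medians of 6708 and 7845. Over all kept cells the remaining members stayed within 2-fold of their 2D culture. *Bbc3* was at a log2 ratio of 0.98 between the Epi columns and 2D ESC, and passed without plate 3 (1.03) or plate 5 (1.03). *Trp53inp1* was at -0.82 between the VE columns and 2D iXEN, and passed without plate 5 (-1.15) and in cells with 6000 to 8500 genes above 0 (-1.07). Depth, medium, plate and culture form changed together with these values, and their part in them was not tested.

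**Figure D2:**
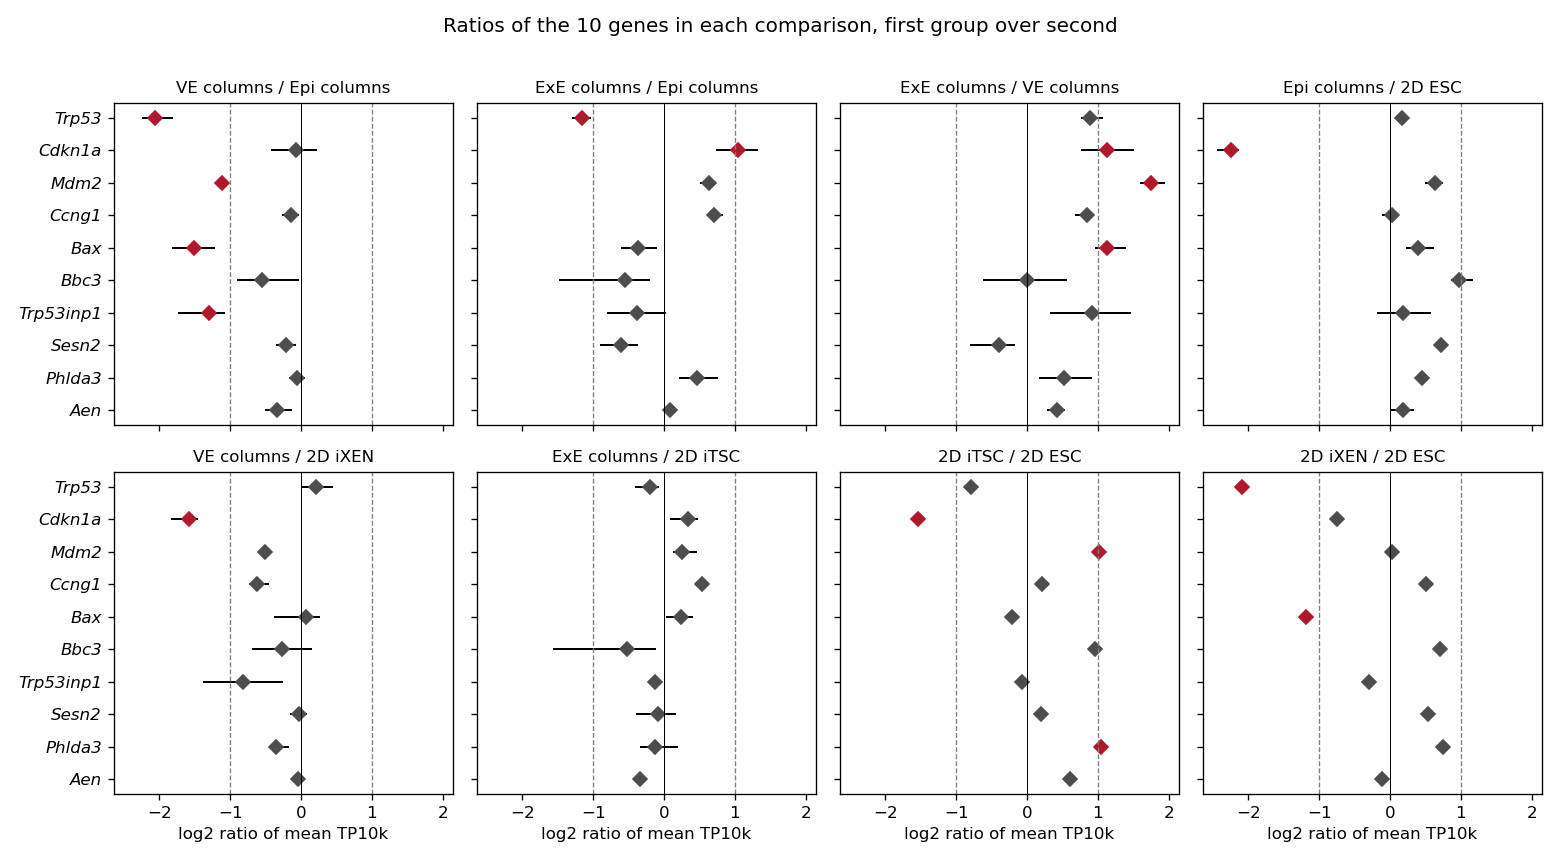
log2 ratio of mean TP10k (horizontal axis, first group over second) of the 10 genes in the 8 comparisons; diamonds are the ratios over all cells, red where at least 2-fold, black lines span plates 3, 4 and 5, and dashed lines mark 2-fold. *Cdkn1a* is alone past the line between the Epi columns and 2D ESC and between the VE columns and 2D iXEN, at -2.25 and -1.58, and no gene is between the ExE columns and 2D iTSC.

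Among the 2D cultures, iXEN had 4.27-fold less *Trp53* (log2 -2.09) and 2.27-fold less *Bax* (log2 -1.19) than ESC, and these 2 of 10 members compare with 30.6% of all genes. Between iTSC and ESC 3 of 10 members passed, beside 22.4% of all genes. *Cdkn1a* was 2.90-fold lower in iTSC (log2 -1.53), while *Phlda3* (2.07-fold, log2 1.05) and *Mdm2* (2.02-fold, log2 1.01) were higher and lay at the threshold, with 0.91 and 0.87 when TPM were used as deposited. *Trp53* was 1.73-fold lower in iTSC. These cultures have no plate split, so no spread can be set beside the values. They also differed in ESC line, plate and medium, which was 2i/LIF for ESC, trophoblast stem cell medium with FGF4 and heparin for iTSC and XEN cell medium for iXEN. Only iTSC and iXEN had DOX. Cell type cannot be told apart from these.

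In the Epi and VE columns most cells had no *Cdkn1a* above 0. In the Epi columns the median cell had 6.99 TP10k of *Trp53* but 0 of *Cdkn1a*, of which the highest 5% of cells had more than 3.93. The same held in the VE columns, where the median *Cdkn1a* was 0 and the 95th percentile 4.53. In the ExE columns the median was 0.555 and the 95th percentile 7.77, with 12.2% of cells above 5 TP10k. How far depth sets the number of cells at 0 was not tested. In 2D ESC 35.9% of cells were above 5 TP10k, in 2D iXEN 14.9% and in 2D iTSC 4.96%.

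**Figure D3:**
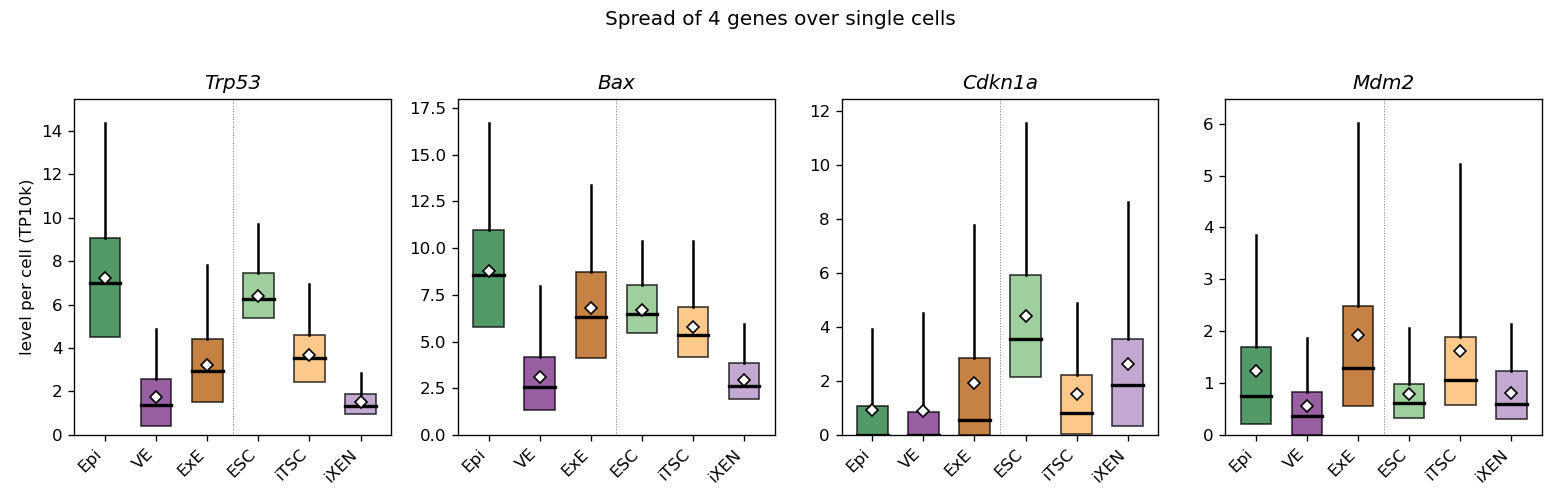
Level per cell in TP10k (vertical axis) of *Trp53*, *Bax*, *Cdkn1a* and *Mdm2* in the Epi, VE and ExE columns (left of the dotted line) and in 2D ESC, iTSC and iXEN; boxes span the middle 50% of cells, thick lines are medians, diamonds are means, and whiskers reach the 95th percentile. The median of *Cdkn1a* is 0 in the Epi and VE columns and 3.56 TP10k in 2D ESC.

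Cell by cell, the 9 targets correlated weakly, and somewhat more with each other than with *Trp53* mRNA. Over the 36 pairs of targets the median Spearman rho ran from 0.15 in the Epi columns to 0.27 in 2D ESC, and over the 9 pairs with *Trp53* from -0.04 in the Epi columns to 0.09 in the ExE columns. The ranges overlapped, since single pairs of targets reached down to -0.03. Between *Trp53* and each of the 9 targets in the 6 groups, all 54 Spearman correlations lay between -0.12 and 0.23, and on single plates between -0.17 and 0.25. The targets *Cdkn1a*, *Mdm2*, *Ccng1*, *Trp53inp1* and *Phlda3*, picked out after their values were seen, had 10 pairs with a median rho of 0.45 in 2D ESC, 0.45 in 2D iTSC and 0.50 in 2D iXEN, and of 0.29, 0.34 and 0.31 in the Epi, VE and ExE columns. As the choice fixes these values, they describe the 5 genes only. The strongest pairs were *Cdkn1a* with *Trp53inp1* in 2D iXEN (0.63) and in the VE columns (0.45), *Ccng1* with *Trp53inp1* in 2D ESC (0.63), *Cdkn1a* with *Mdm2* in 2D iTSC (0.59), *Cdkn1a* with *Ccng1* in the ExE columns (0.43) and *Mdm2* with *Ccng1* in the Epi columns (0.39).

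Over all pairs of 28 further p53 target genes the median rho was 0.04 to 0.07, and over those of 15 regulators of p53 it was 0.01 to 0.04. The values run over all kept cells of a group, which share its culture, and the correlation of a member with the number of genes above 0 lay between -0.13 and 0.26. Weakly expressed genes have many cells tied at 0 in 3D, so a lower rho there does not compare 3D with 2D. Some genes of the wider lists were above 0 in few kept cells, such as *Ephx1* in 13.7%, while *Bbc3*, the least often found member, was in 44.7%. The medians of these lists thus do not compare with those of the members either.

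**Figure D4:**
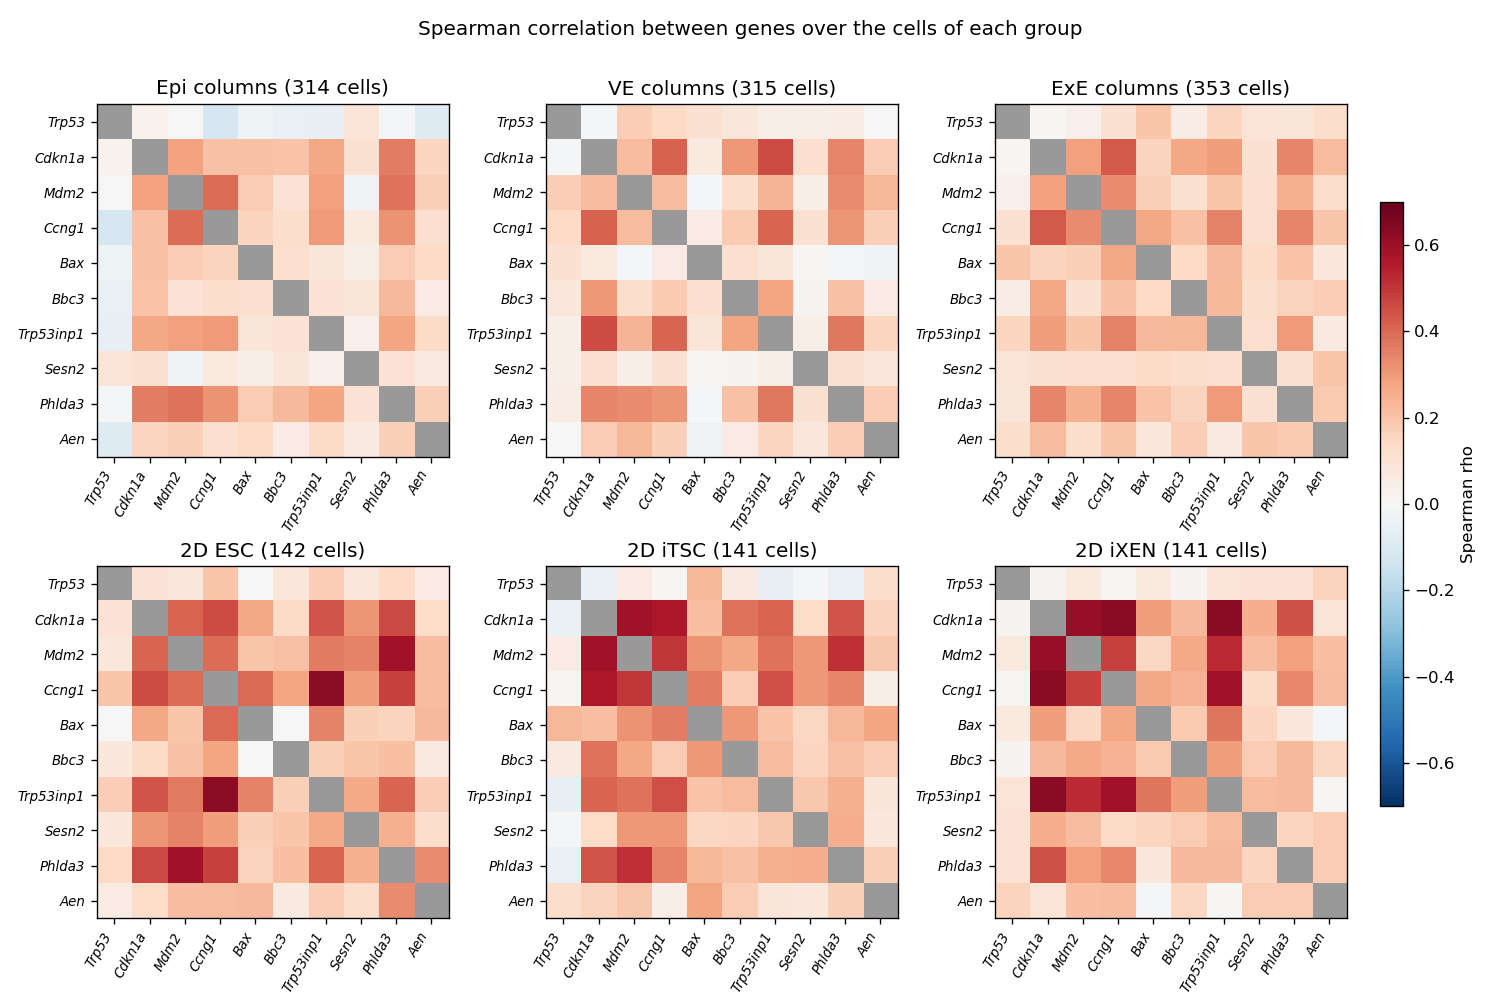
Spearman correlation (colour, -0.7 to 0.7) between the levels of each pair of the 10 genes over the cells of each of the 6 groups, with the diagonal in grey. The *Trp53* row is pale in all 6 panels, within -0.12 to 0.23, while *Cdkn1a*, *Mdm2*, *Ccng1* and *Trp53inp1*, picked out after their values were seen, form a dark patch in the 2D cultures, up to 0.63.

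Wider parts of the pathway varied gene by gene. A list of further p53 targets held 28 genes above 0 in at least 10% of kept cells. Between the VE and the Epi columns 3 were higher and 8 lower, 39.3% of the list beside 28.9% of all genes, and between 2D iXEN and 2D ESC 7 were higher and 5 lower, 42.9% beside 30.6%. *Dram1*, a lysosomal protein of p53-linked autophagy, was highest in the endoderm-directed groups, at 0.619 TP10k in the VE columns and 0.646 in 2D iXEN, against 0.00196 in the Epi columns and 0.000213 in 2D ESC. *Trp53i11* and the growth-arrest gene *Gadd45a* were lower in the VE than in the Epi columns, at log2 ratios of -2.95 and -2.46.

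In the ExE columns 5 further targets were higher and 4 lower than in the Epi columns, 32.1% of the list beside 21.2% of all genes, and 6 were higher and 2 lower than in the VE columns, 28.6% beside 20.7%. *Perp*, a desmosomal protein of epithelia as well as a p53 target, stood at 0.532 TP10k in the ExE columns and 2.47 in 2D iTSC, against at most 0.0909 in the Epi and VE columns and 2D ESC. *Btg2*, an antiproliferative gene, was higher in the ExE than in the Epi columns at a log2 ratio of 2.13. Between 2D iTSC and 2D ESC 11 were higher and 4 lower, 53.6% beside 22.4%, with a median log2 ratio of 0.51 over the list beside 0.13 over all genes. *Pmaip1*, which encodes the BH3-only protein NOXA, was at 0.228 TP10k in iTSC and 0.260 in iXEN, against 0.0363 in ESC.

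Against 2D cultures of like lineage, 2 further targets were higher and 0 lower in the Epi columns, 7.14% of the list beside 14.4% of all genes. In the VE columns 0 were higher and 3 lower, 10.7% beside 8.01%, and in the ExE columns 1 was higher and 3 lower, 14.3% beside 16.4%. The 2 of the Epi columns were *Pmaip1*, at 0.487 TP10k against 0.0363 in 2D ESC (log2 3.42), and *Gadd45a*, at 1.60 against 0.184 (log2 3.05), opposite in direction to *Cdkn1a*. The 3 of the VE columns were *Ephx1*, *Plk3* and *Plk2*, at log2 ratios of -1.97, -1.19 and -1.08 to 2D iXEN. In the ExE columns *Dram1* was higher than in 2D iTSC (log2 2.24) and *Perp* and *Plk3* were lower (log2 -2.19 and -1.28). Within that block *Dram1* was at 0.433 TP10k in the cells led by VE markers, 0.135 in those led by ExE and 0.0736 in those led by Epi markers, and the 6 VE markers summed to 1.88 TP10k in the ExE columns and 0.264 in 2D iTSC. Their part in the ratio was not tested.

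Of 20 regulators and cofactors of p53, 17 were in the table and 15 passed the filter on low values, *Trp63* and *Trp73*, the p53 relatives, not. Of the 15, 3 (20%) passed 2-fold between the VE and Epi columns, the ExE and Epi columns, and 2D ESC and each other culture, beside 21.2 to 30.6% of all genes. Between the ExE and VE columns 1 (6.67%) passed, beside 20.7%, and in each 3D block against its 2D culture 2 (13.3%), beside 14.4% for Epi, 8.01% for VE and 16.4% for ExE. *Cdkn2a*, whose ARF product inhibits MDM2, was at 0.0620 and 0.0707 TP10k in the Epi and VE columns, against 0.201 and 0.202 in 2D ESC and 2D iXEN, and was at 0.185 in the ExE columns. The log2 ratios of *Cdkn2a* to 2D were -1.55 in the Epi and -1.39 in the VE columns, and it stayed within 2-fold between the ExE columns and 2D iTSC. It was above 0 in only 31.2% of kept cells, and the values are of the whole gene, not of its ARF transcript alone. A link to the *Cdkn1a* levels was not tested. The kinases *Chek1* and *Atm* were lower in the VE than in the Epi columns (log2 -1.15 and -1.13) and *Hipk2*, a p53 kinase, was higher (log2 1.29). *Chek2* was higher in 2D ESC, at 2.20 TP10k, than in iTSC (1.06) and iXEN (0.925), as was the deacetylase *Sirt1*, at 0.348 against 0.164 and 0.120.

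**Figure D5:**
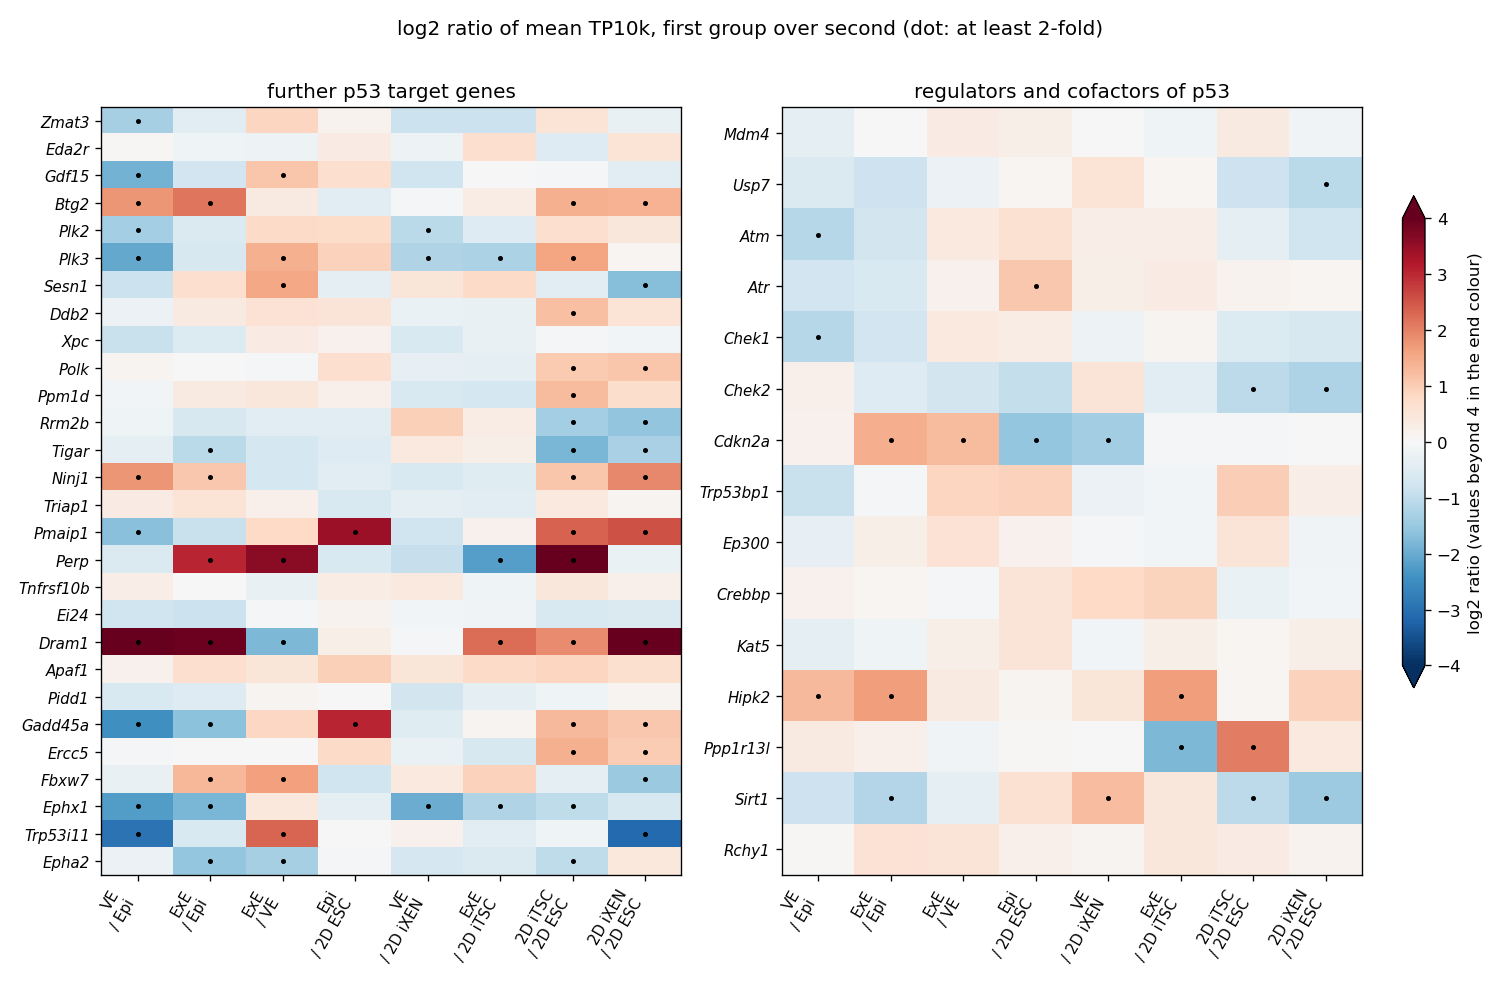
log2 ratio of mean TP10k (colour, first group over second) for 28 further p53 targets and 15 regulators of p53 in the 8 comparisons named under the columns; dots mark ratios of at least 2-fold. *Dram1* is at 5.72 between the VE and Epi columns, *Perp* at 4.62 between 2D iTSC and 2D ESC, and *Pmaip1* and *Gadd45a* at 3.42 and 3.05 between the Epi columns and 2D ESC.

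Other states of the cells were set beside the *Cdkn1a* levels. The summed level of 8 cycling genes was 24.04 TP10k in the Epi columns (plates 21.6 to 26.2), 20.6 in the VE and 22.4 in the ExE columns, against 34.9 in 2D ESC, 27.7 in 2D iTSC and 22.1 in 2D iXEN. The levels did not share an order over the groups. 2D ESC was highest in both, but 2D iXEN, next in *Cdkn1a* at 2.63 TP10k, had less of the cycling genes than 2D iTSC, with *Cdkn1a* at 1.52. Of 4 other inhibitors of cyclin-dependent kinases the sum was 0.131 to 0.413 TP10k in 5 groups and 0.975 in the ExE columns (plates 0.587 to 1.29), where the median cell was at 0.225, beside 0.241 in the Epi columns. A list of 5 immediate early genes summed to 1.43 to 2.47 TP10k over the groups. A list of 6 genes of the integrated stress response was highest in the Epi columns at 13.2 and lowest in 2D iXEN at 6.67. The part of these states in the levels of the members was not tested.

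By the pattern of log2 levels over the 12 points, the genes most like *Trp53* were *Msantd3*, *Rarg* and *Tdrd12*, with Pearson r of 0.982, 0.978 and 0.977. *Rarg*, a retinoic acid receptor, was at 0.517 TP10k in the Epi columns and 0.0250 in the VE columns. Those most like *Cdkn1a* were *Tubb2a*, *Cops5* and *Gabarapl2*, with r of 0.903, 0.893 and 0.886. The r takes no account of the size of a change, and *Cops5* ran only from 2.36 TP10k in the VE columns to 3.20 in 2D ESC. Points of a block share their pool, so these rankings are descriptions. *Gabarapl2* was at 7.32 TP10k in 2D ESC and 1.64 in the Epi columns.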

How the data were processed

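Single cells of RtL-embryoids and of 3 2D cultures were measured by SMART-seq2. The authors pseudoaligned reads to the GRCm38 transcriptome (Gencode vM16) with kallisto, summed transcripts per gene with tximport, filtered mitochondrial, ribosomal and pseudogenes, and deposited TPM for 20999 genes in 1931 wells, of which 39 held no value. TPM keep no read number, so the number of genes above 0 stood in for depth. Filtered genes left sums that differ between cells (medians 564024 to 660983 over the 6 groups), and TPM were therefore rescaled to 10000 per cell (TP10k). No 2 kept cells had identical values. Well columns were taken as Epi, VE and ExE blocks and checked against marker lists.

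Ratios were log2((mean + 0.01)/(mean + 0.01)), which understates changes of low genes, and were counted from 2-fold over 11507 genes above 0 in at least 10% of the 1406 kept cells. All 10 members passed. With 1 pool or culture per condition there was no test. The 3 further targets and 3 regulators with the largest ratio past 2-fold per comparison, and the 3 genes most like *Trp53* and *Cdkn1a*, were named. Members and lists were chosen with earlier results of these data known. Alternatives were another minimum of genes, cells of like gene number, another pseudocount, means of logarithms, capped values, equally weighted plates, unscaled TPM, marker-matched cells, no filter and each plate left out. Shared 31-base words and start regions came from Gencode vM21 and RefSeq GRCm38.p6. Python 3.11.15, numpy 2.4.6, pandas 2.3.3, scipy 1.17.1 and matplotlib 3.10.9 were used.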

Additional observations from a re-analysis of the deposited data

Results flagged for a closer look

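The change from 2D to 3D went one way on plates 3, 4 and 5 in one lineage and the opposite way on all 3 plates in another for 7 of the 10 members, beside 28.8% of the 11507 genes tested. This rule sets no size of change. The members were above 0 in 44.7 to 96.9% of kept cells, while the genes tested reach down to 10%, so the 2 shares do not compare directly. The 3 plates of a block were set against the same 2D culture, so they are not independent. Each 2D culture is 1 sample and the plates are technical splits, so these differences were not tested. They are given as the log2 ratio of 3D over 2D in the first lineage minus that in the second. For *Cdkn1a* the difference was -2.58 between the Epi and the ExE lineage (-2.25 and 0.33) and -1.91 between the VE and the ExE lineage (-1.58 and 0.33). *Bbc3* differed by 1.501 between the Epi and the ExE lineage (0.98 and -0.52). *Mdm2* differed by 1.14 between the Epi and the VE lineage (0.63 and -0.51) and by -0.76 between the VE and the ExE lineage. For *Ccng1* it was -1.15 between the VE and the ExE lineage (-0.62 and 0.53), and for *Phlda3* 0.81 between the Epi and the VE lineage (0.46 and -0.35). *Aen* differed by 0.53 between the Epi and the ExE lineage. The smallest were those of *Trp53*, 0.36 between the Epi and the ExE and 0.40 between the VE and the ExE lineage.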

How the results depend on the processing

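Of the 80 ratios, 16 passed 2-fold, and under the alternatives all kept their direction. Of their values under the alternatives 88.6% stayed past 2-fold, and 9 of the 16 ratios did so under every alternative. Those 9 were *Trp53* and *Bax* between the VE and Epi columns, *Trp53* between the ExE and Epi columns, *Mdm2* and *Bax* between the ExE and VE columns, *Trp53* between 2D iXEN and 2D ESC, and *Cdkn1a* between the Epi columns and 2D ESC, the VE columns and 2D iXEN, and 2D iTSC and 2D ESC. In cells with 6000 to 8500 genes above 0 the number of members past 2-fold was 2 in place of 4 between the VE and Epi columns, 2 in place of 3 between the ExE and VE columns, where *Cdkn1a* was at a log2 ratio of 0.98, 1 in place of 3 between 2D iTSC and 2D ESC, 1 in place of 2 between 2D iXEN and 2D ESC, and 2 in place of 1 between the VE columns and 2D iXEN. Between the ExE and Epi columns 1 in place of 2 passed with at least 4000 genes, with a pseudocount of 0.1 or with means of ln(TP10k + 1). Between 2D iTSC and 2D ESC 1 in place of 3 passed with a pseudocount of 0.1 or unscaled TPM. Between the Epi columns and 2D ESC 2 in place of 1 passed with values capped at the 99th percentile. The ratios that crossed 2-fold under these alternatives were those of *Mdm2*, *Trp53inp1*, *Phlda3*, *Bax*, *Bbc3* and *Cdkn1a*, and the cause was not tested. Leaving out each plate in turn gave 1 to 2 members between the ExE and Epi columns, between the Epi columns and 2D ESC and between the VE columns and 2D iXEN, and 2 to 4 between the ExE and VE columns. Cells led by their own markers in 3D and 2D were chosen as an alternative after the data were seen. No paired analysis was possible because each condition is 1 pool or 1 culture. TPM hold no read number, so the depth behind a low value, such as those of *Bbc3*, is unknown.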
